A study of Mus musculus with 9 samples.

Results

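The genes described here are Hsf1, which encodes the master regulator of the heat shock response, and 9 chaperone genes of that response, Hspa1a, Hspa1b, Hspa8, Hsph1, Hsp90aa1, Hsp90ab1, Dnajb1, Hspb1 and Hspe1. They were taken by gene symbol from the deposited table of read counts as a check of handling stress. All 10 were found among its 52264 rows, and all 10 were among the 15366 genes that passed the filter on low counts. RNA sequencing libraries came from mouse embryonic stem cells whose genotype is given as beta-catenin-/- in every group, so no group has intact β-catenin by its label, and the number of clones is not given. Cells were grown on feeder dishes, where naive cells were expanded in medium with PD03 (a MEK inhibitor, 1 µM), CHIR-99021 (3 µM) and LIF (40 ng/ml), and the medium was exchanged for N2B27 the night before RNA extraction. The groups were an untreated control, BRD0705, an inhibitor selective for the kinase GSK3α, and CHIR (CHIR-99021), which inhibits GSK3α and GSK3β. Each had 3 libraries after a 30 min treatment at doses not given in the sources used here, and a vehicle for the control is not named. Nothing says that replicates were separate cultures, so p-values measure the spread between these libraries, which may be technical.

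Libraries held 17359422 to 20773337 counts. All 10 embryonic stem cell markers (Pou5f1, Sox2, Nanog and 7 others) were expressed, with a summed level of 5006 to 5401 CPM (counts scaled to library size) over the libraries, and so were all 10 fibroblast markers such as Col1a1, which feeder cells express. The summed fibroblast level was 2247 to 2700 CPM in control, 2856 to 2921 CPM with BRD0705 and 2537 to 3050 CPM with CHIR, so it lay higher with BRD0705 than in every control library. Chaperone messages from feeder cells and stem cells are counted together, and fewer cells of a type cannot be told apart from less RNA per cell. Libraries also differed in how their counts moved with transcript GC content (Spearman correlation across genes of 0.0792 to 0.279 in the BRD0705 libraries, -0.121 to -0.0640 with CHIR and -0.288 to 0.187 in control).

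In unstressed cells HSF1 is held inactive by chaperones. When proteins misfold, it is released, forms trimers and binds heat shock elements, which are inverted repeats of the unit nGAAn, and transcription of HSP70, HSP40, HSP110 and small heat shock protein genes rises within minutes. GSK3 is one of the kinases reported to phosphorylate HSF1, a modification linked to its repression. Embryonic stem cells are known for high constitutive levels of HSC70 and HSP90, which serve ordinary protein folding.

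The promoter sequences are shown because heat shock elements link several of these genes to HSF1. RefSeq windows on GRCm38.p6, from 250 bases before to 50 bases after each transcription start, matched 6 of the 10 genes by symbol (Hspa1a, Hspa1b, Hsph1, Dnajb1, Hspb1 and Hspe1). Elements with 3 alternating units were written GAANNTTCNNGAA or TTCNNGAANNTTC (each is the other on the opposite strand). They were in windows of 2 of these 6 genes, Hspe1 and Hsph1. The share was 0.662% of all 27025 genes and 0.603% of all 32851 windows. The longer ones contain the 2-unit forms GAANNTTC and TTCNNGAA, which read alike on both strands. These 2-unit forms were in windows of 5 of the 6 genes, beside 17.0% of all genes and 15.1% of all windows. Below, capitals mark these matches, and positions count from -1 at the base before the start. The 250 bases upstream of Hspe1 (chr1:55087898-55088147, plus strand) hold a run of 4 units from -89 to -72. Those of Hspa1a (chr17:34972157-34972406, minus strand) hold a 2-unit match from -104 to -97, and the Hspa1b sequence (chr17:34959239-34959488, minus strand) is identical at 247 of its 250 positions, match included. Hspb1 (chr5, plus strand) has 2-unit matches from -117 to -110 and from -97 to -90. In the first of its listed windows, Hsph1 (chr5, minus strand) has one from -33 to -26 and a 3-unit match after the start, from 37 to 49.
Hspe1 upstream: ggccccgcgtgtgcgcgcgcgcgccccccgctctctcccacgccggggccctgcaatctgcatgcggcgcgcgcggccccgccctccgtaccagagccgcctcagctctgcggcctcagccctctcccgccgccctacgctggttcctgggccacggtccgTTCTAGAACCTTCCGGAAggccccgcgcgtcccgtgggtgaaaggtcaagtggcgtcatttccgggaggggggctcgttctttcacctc
Hspa1a upstream: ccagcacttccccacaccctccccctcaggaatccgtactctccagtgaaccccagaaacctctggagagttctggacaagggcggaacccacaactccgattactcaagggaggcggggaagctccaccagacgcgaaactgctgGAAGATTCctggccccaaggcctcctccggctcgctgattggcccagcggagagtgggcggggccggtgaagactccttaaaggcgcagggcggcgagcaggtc
Hspb1 first match: caacaagaGAAGTTTCcagatggg
Hspb1 second match: tgggggcaGAACCTTCctggcccc
Hsph1 match before the start: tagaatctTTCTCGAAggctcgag
Hsph1 match after the start: gctgcagaTTCTGGAAAGTTCt
Both Dnajb1 windows held none of these forms, which says only that the letters are not there. The second (chr8:83608298-83608597, plus strand) lies wholly downstream of the first (chr8:83607925-83608224). Only the first therefore covers bases upstream of the first start.

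The 10 genes together took 1.74 to 1.88% of the counts of a library. Hsp90ab1, Hspa8 and Hsp90aa1 made up 92.7 to 93.8% of that share. The share was 1.84 ± 0.0287% in the control group, 1.76 ± 0.0208% under BRD0705 and 1.80 ± 0.0559% under CHIR (SD, n = 3 per group), so the BRD0705 libraries, at 1.74 to 1.78%, lay below the control libraries, at 1.82 to 1.88%. Neither inhibitor group had a higher mean share than control.

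Levels per length spanned a wide range. Per kilobase of annotated exons, and over the 9 libraries, the order from high to low was Hsp90ab1 (1292 ± 80.7 CPM per kb, SD, n = 9), Hsp90aa1 (861 ± 59.1), Hspa8 (678 ± 26.9), Hspb1 (572 ± 37.8), Hspe1 (78.5 ± 8.75), Hsph1 (26.8 ± 0.762), Dnajb1 (19.5 ± 0.882), Hsf1 (6.98 ± 0.615), Hspa1b (4.91 ± 0.617) and Hspa1a (1.54 ± 0.250). The library ranges of neighbours in this order did not overlap. With the longest transcript as the length, Hspa8 (1299 CPM per kb) stood above Hsp90aa1 (1013 CPM per kb), and the rest of the order was kept. Both cytosolic HSP90 genes and Hspa8 were thus at the top, and the stress-inducible pair Hspa1a and Hspa1b was at the bottom, at percentiles 29.4 and 47.3 of the tested genes by mean log2 CPM.

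**Figure D1:**
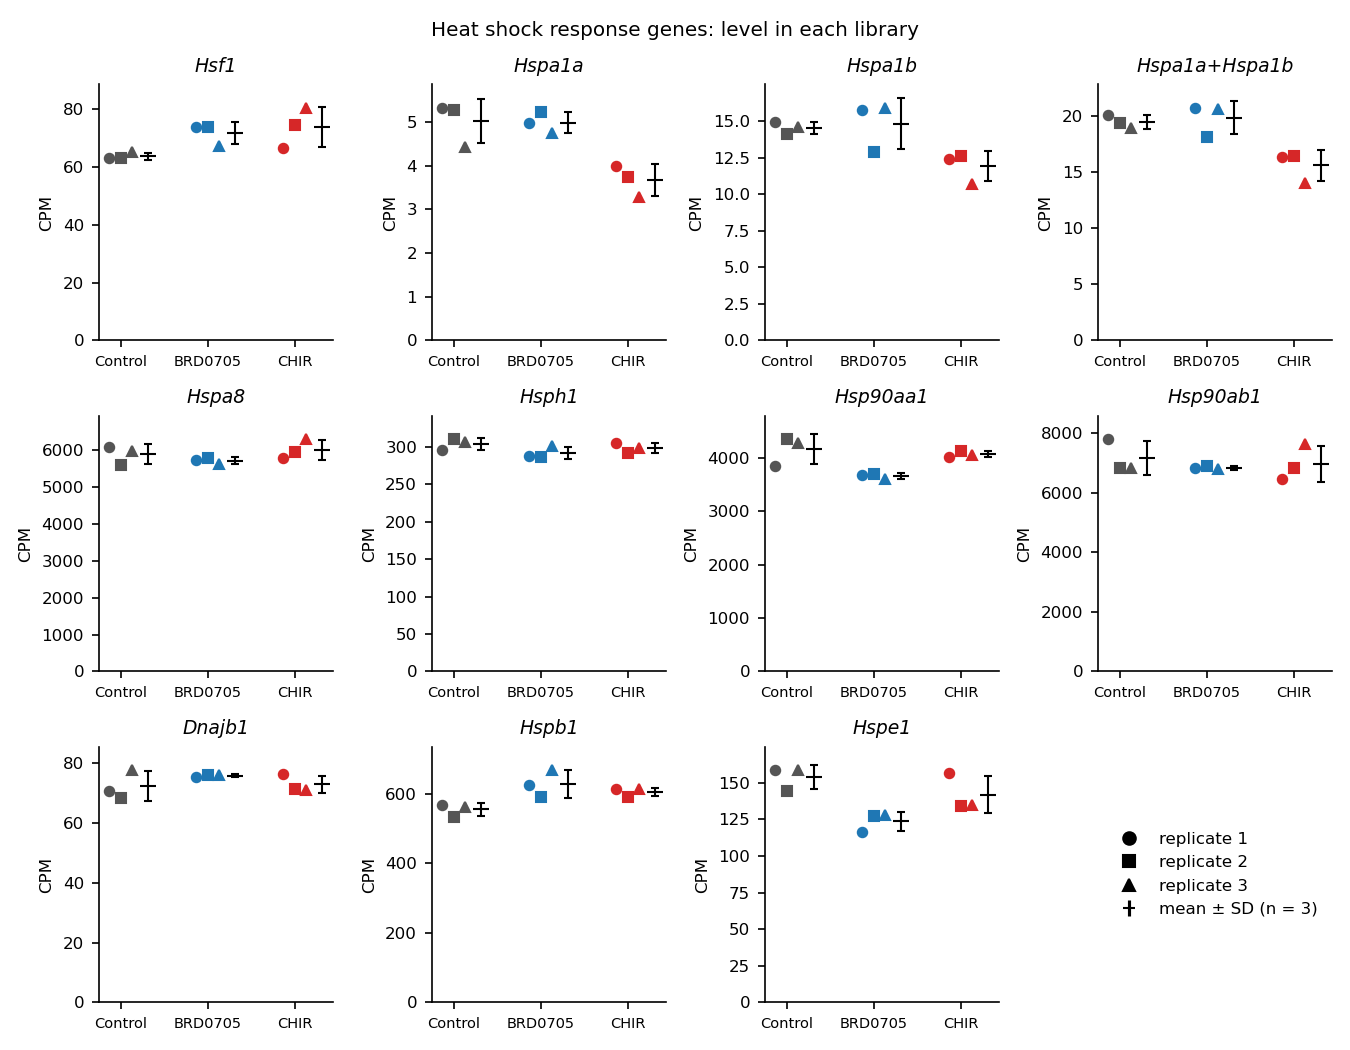
CPM of each gene in each library, and of Hspa1a and Hspa1b added together, by treatment group; points are libraries (marker shape gives the replicate number), and the black bar is the mean ± SD of 3 libraries. Each vertical axis starts at 0 and has its own scale. Hspe1 is lowest in the 3 BRD0705 libraries (116 to 128 CPM), and the summed pair is lowest in the 3 CHIR libraries (14.0 to 16.4 CPM).

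Each gene was compared between groups in a fit of all 15366 genes (edgeR's quasi-likelihood test), and passed at an adjusted p under 0.05. BRD0705 against control gave 1 of the 10 genes, Hspe1, which fell, where 1.22% of all tested genes passed. CHIR against control gave 0 of 10 by edgeR (6.30% of all tested genes), and BRD0705 against CHIR 0 of 10 by edgeR (7.77%). DESeq2 gave 3, 1 and 2 of the 10 in these comparisons, where it passed 5.48%, 6.46% and 8.02% of the genes to which it gave an adjusted p. With limma voom the counts were 1, 0 and 0, against 1.13%, 5.90% and 7.33% of all tested genes. At an unadjusted p under 0.05 there were 4 of the 10 in each comparison by edgeR, against 15.9%, 20.5% and 22.5% of all tested genes. Groups were fully separated in CPM for 4 of the 10 in each comparison, against 20.2%, 25.1% and 26.7% of all tested genes. Of those 4, in each comparison 2 were higher and 2 lower. The median log2 fold change of the 10 genes was -0.03 in each comparison, beside -0.0038, -0.0091 and 0.0038 for all tested genes. Both comparisons with control use the same 3 control libraries.

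**Figure D2:**
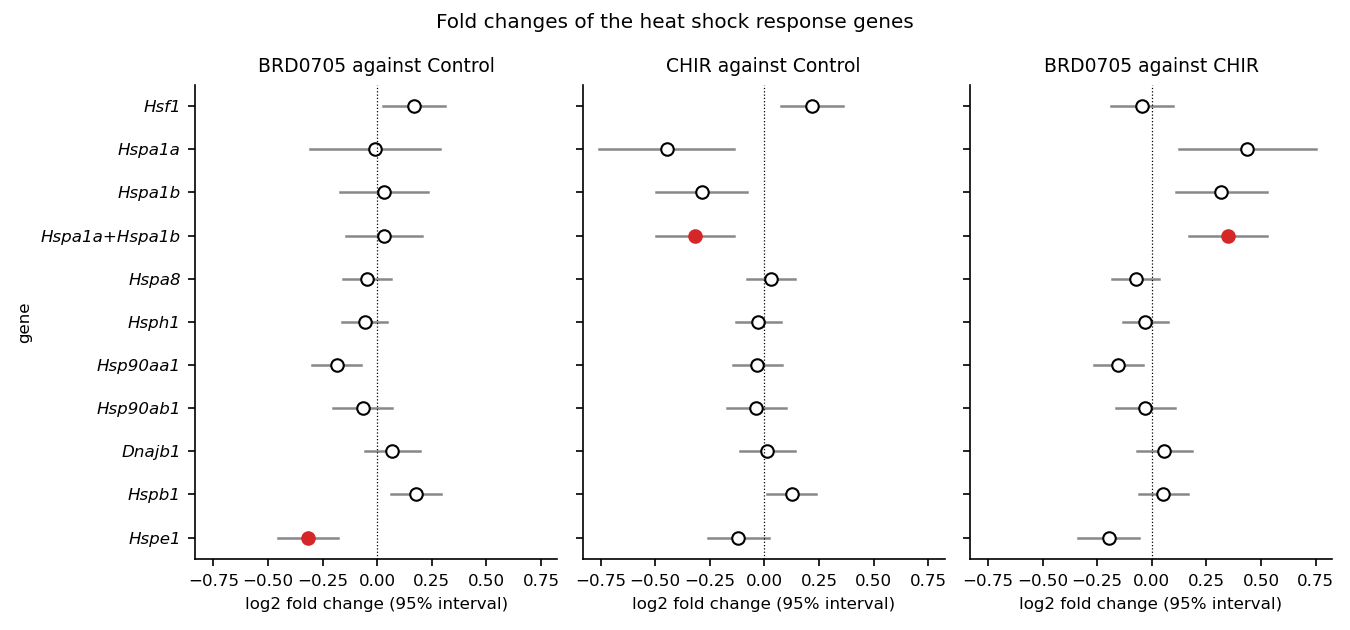
Log2 fold change of each gene and of the summed Hspa1 pair in the 3 comparisons (points) with its 95% interval (grey lines); filled red points passed an adjusted p of 0.05. Hspe1 is filled against control with BRD0705 (-0.32), and the summed pair is filled with CHIR against control (-0.32) and with BRD0705 against CHIR (0.35).

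Hsf1, the transcription factor itself, was at 63.0, 63.0 and 65.0 CPM in the control libraries, 74.0, 73.7 and 67.3 CPM with BRD0705, and 66.7, 74.7 and 80.5 CPM with CHIR. Every library of both inhibitor groups lay above the 3 control libraries. The log2 fold change was 0.17 ± 0.07 for BRD0705 (SE; edgeR adjusted p = 0.223) and 0.22 ± 0.07 for CHIR (SE; edgeR adjusted p = 0.0661), and neither passed. For CHIR it passed with DESeq2 (adjusted p = 0.0401), without the low-count filter (edgeR adjusted p = 0.0214) and with each library's GC and length trend removed (edgeR adjusted p = 0.0209), as well as in the fits without CHIR replicate 1 (edgeR adjusted p = 0.0190) or BRD0705 replicate 3 (edgeR adjusted p = 0.0481). Between the inhibitors the difference was -0.05, with a 95% interval of -0.19 to 0.10. Hsf1 overlaps Bop1 and Dgat1 on the opposite strand in GENCODE vM39, and since the strand setting of the counting is not given, reads from them cannot be told apart from its own.

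Hspa1a and Hspa1b encode the stress-inducible HSP70, and their rise is the usual sign of heat shock or handling stress. They are single-exon neighbours, and 52.7% of the 75-base stretches of the Hspa1a transcript also occur in Hspa1b, so the split of reads between their rows is uncertain. Hspa1a had 60 to 109 counts per library. It stood at 5.32, 5.28 and 4.43 CPM in the control libraries, 4.97, 5.23 and 4.75 CPM under BRD0705 and 3.99, 3.74 and 3.28 CPM under CHIR. Hspa1b had 196 to 335 counts, with 14.9, 14.1 and 14.6 CPM in the control libraries, 15.7, 12.9 and 15.9 CPM under BRD0705 and 12.4, 12.6 and 10.7 CPM under CHIR. For both rows the 3 CHIR libraries lay below all control and all BRD0705 libraries, while control and BRD0705 overlapped. Taken singly, neither passed in any comparison, with edgeR adjusted p values of 0.0813 and 0.0962 for CHIR against control and 0.0820 and 0.0572 for BRD0705 against CHIR. Hspa1b passed between the inhibitors with library size only (edgeR adjusted p = 0.0431), without the low-count filter (0.0429), with a floor on mean CPM (0.0490) and without BRD0705 replicate 2 (0.0261).

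Because of the shared sequence, the pair was also tested as 1 summed row (Hspa1a+Hspa1b), in a fit in which 1.43%, 6.35% and 7.77% of all rows passed in the 3 comparisons. The sum was 20.1, 19.4 and 19.0 CPM in the control libraries, 20.7, 18.2 and 20.7 CPM under BRD0705 and 16.4, 16.4 and 14.0 CPM under CHIR. The CHIR group lay below both others without overlap. Mean levels were 19.5 ± 0.596 CPM (SD, n = 3) without inhibitor and 15.6 ± 1.38 CPM (SD, n = 3) under CHIR, a log2 fold change of -0.32 that passed (SE 0.09; edgeR adjusted p = 0.0307). The sum was higher with BRD0705 than with CHIR by 0.35 ± 0.09 (SE; edgeR adjusted p = 0.0179). BRD0705 differed from control by 0.03, with a 95% interval of -0.14 to 0.20 and overlapping libraries. Against control, the CHIR call was lost with DESeq2 (adjusted p = 0.0627) and in 5 of 9 leave-one-out fits, those without CHIR replicate 2 or 3 or control replicate 1, 2 or 3 (edgeR adjusted p = 0.0584, 0.128, 0.0945, 0.0809 and 0.0670). The call between inhibitors was lost with the GC and length trend removed (0.23, edgeR adjusted p = 0.0772) and without BRD0705 replicate 1, BRD0705 replicate 3 or CHIR replicate 3 (edgeR adjusted p = 0.0873, 0.0572 and 0.0820).

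Over the 9 libraries, the tested genes whose log2 CPM followed the summed pair most closely were Bcl11a (Pearson r = 0.978), Nipal4 (0.972), Cebpd (0.963), Tdrkh (0.961) and Obsl1 (0.955), given as a description since they are the highest of all tested genes. Since they were chosen for following the pair over the same libraries, their differences between groups are not tested here. Cebpd, which encodes a C/EBP family transcription factor, was at a mean of 10.7 CPM and Bcl11a, which encodes a zinc finger repressor, at 2.82 CPM. Means were 28.3 CPM for Obsl1, 4.29 CPM for Tdrkh and only 0.695 CPM for Nipal4.

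Hspa8 encodes HSC70, the constitutive HSP70 of the cytosol. It had 102024 to 123868 counts per library and stood at 6106, 5612 and 5994 CPM in the control libraries, 5734, 5804 and 5625 CPM under BRD0705 and 5791, 5963 and 6319 CPM under CHIR. The 3 groups overlapped. The 95% interval of the log2 difference from control was -0.15 to 0.06 for BRD0705 and -0.08 to 0.14 for CHIR. Some 31.6% of its 75-base stretches occur in other annotated genes, mostly processed copies such as Gm15459. Hsph1, the HSP110 that exchanges the nucleotide of HSP70, varied least, from 287 to 311 CPM over all 9 libraries, with a coefficient of variation of 2.84%. Its 95% intervals were -0.16 to 0.04 for BRD0705 and -0.13 to 0.08 for CHIR against control. Dnajb1, the J-domain partner of HSP70 that is among the most heat-inducible genes, lay between 68.1 and 77.7 CPM, both in control libraries. Its 95% intervals against control were -0.06 to 0.20 for BRD0705 and -0.11 to 0.14 for CHIR.

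The cytosolic HSP90 genes differed in which libraries stood out. Hsp90aa1, the stress-inducible form, was at 3840, 4355 and 4282 CPM in the control libraries, 3677, 3694 and 3605 CPM under BRD0705 and 4017, 4129 and 4054 CPM under CHIR. All 3 BRD0705 libraries lay below every control and CHIR library. In GENCODE vM39, 43.0% of its 75-base stretches occur in other genes (36.2% in Gm12346), and Gm60091 overlaps it on the same strand, so part of its count is uncertain. The log2 difference was -0.18 ± 0.05 from control (SE; edgeR adjusted p = 0.0909) and -0.15 ± 0.05 from CHIR (SE; edgeR adjusted p = 0.0889), and neither passed. Against control it passed with DESeq2 (adjusted p = 0.0142), without the low-count filter (edgeR adjusted p = 0.0326) and without control replicate 1, its lowest control library (-0.24, edgeR adjusted p = 0.0286). Against CHIR it passed with DESeq2 (adjusted p = 0.0261), with the GC and length trend removed (edgeR adjusted p = 0.0388) and without control replicate 1 (edgeR adjusted p = 0.0416). Hsp90ab1, the constitutive form and the most abundant of the 10, was at 7803, 6814 and 6828 CPM in the control libraries, 6807, 6886 and 6779 CPM under BRD0705 and 6451, 6826 and 7621 CPM under CHIR. Control replicate 1 and CHIR replicate 3 were its 2 highest libraries, and the groups overlapped, with 95% intervals against control of -0.20 to 0.07 for BRD0705 and -0.17 to 0.10 for CHIR.

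Hspb1 encodes HSP27 (HSP25 in mouse), a small heat shock protein that holds unfolded proteins and that fibroblasts also express. It was at 570, 535 and 564 CPM in the control libraries, 626, 591 and 670 CPM under BRD0705 and 614, 592 and 613 CPM under CHIR. Every inhibitor library lay above every control library. The log2 fold change was 0.18 ± 0.05 for BRD0705 (SE; edgeR adjusted p = 0.108) and 0.12 ± 0.05 for CHIR (SE; edgeR adjusted p = 0.193), and neither passed. BRD0705 against control passed with DESeq2 (adjusted p = 0.0161), and CHIR against control with the GC and length trend removed (0.18, edgeR adjusted p = 0.0237). The fibroblast marker levels given above were also higher in the inhibitor groups on average. With their score as a covariate the log2 fold changes of Hspb1 were 0.16 and 0.11 (edgeR adjusted p = 0.623 and 0.502). In that fit 0 of all tested genes passed for BRD0705 against control and 280 for CHIR against control, so the loss of a call there is not particular to Hspb1. Hspb1 shares 41.8% of its 75-base stretches with the pseudogene Hsp25-ps1.

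Hspe1 encodes HSP10, the co-chaperonin that caps the HSP60 ring in mitochondria, and its promoter holds the 4-unit run shown above. It was at 159, 144 and 159 CPM in the control libraries, 116, 127 and 128 CPM under BRD0705 and 156, 134 and 135 CPM under CHIR. All BRD0705 libraries lay below all others, while CHIR and control overlapped. Under BRD0705 it fell by 19.7%, from a mean of 154 ± 8.27 CPM to one of 124 ± 6.62 CPM (SD, n = 3 per group), a log2 fold change of -0.32 ± 0.07 (SE; edgeR adjusted p = 0.0274). With CHIR the log2 fold change was -0.12, with a 95% interval of -0.26 to 0.02, and BRD0705 and CHIR differed by -0.20 (95% interval -0.34 to -0.06; edgeR adjusted p = 0.0788), a difference that passed with DESeq2 (adjusted p = 0.0437) and without the low-count filter (edgeR adjusted p = 0.0261). Its transcript has a GC content of 45.5%. The direction was the same in all 22 other fits against control with BRD0705, but the call was lost with the GC and length trend removed (-0.23, edgeR adjusted p = 0.103), with the fibroblast marker score as a covariate (-0.41, edgeR adjusted p = 0.231), under which 0 of all tested genes passed, and without BRD0705 replicate 1 or 2 or control replicate 2 or 3 (edgeR adjusted p = 0.176, 0.0686, 0.0569 and 0.130).

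Hspd1 encodes HSP60 and lies on the opposite strand to Hspe1. Hspd1 stood at 810, 824 and 848 CPM in the control libraries, 722, 700 and 802 CPM under BRD0705 and 828, 773 and 723 CPM under CHIR. Its BRD0705 libraries lay below control without overlap, with a log2 difference of -0.16 ± 0.06 that did not pass (SE; edgeR adjusted p = 0.201). The annotated span of Hspe1 lies wholly within that of Hspd1, on the opposite strand, so some of their reads may be counted for either gene. This limit also applies to the Hspe1 call above.

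**Figure D3:**
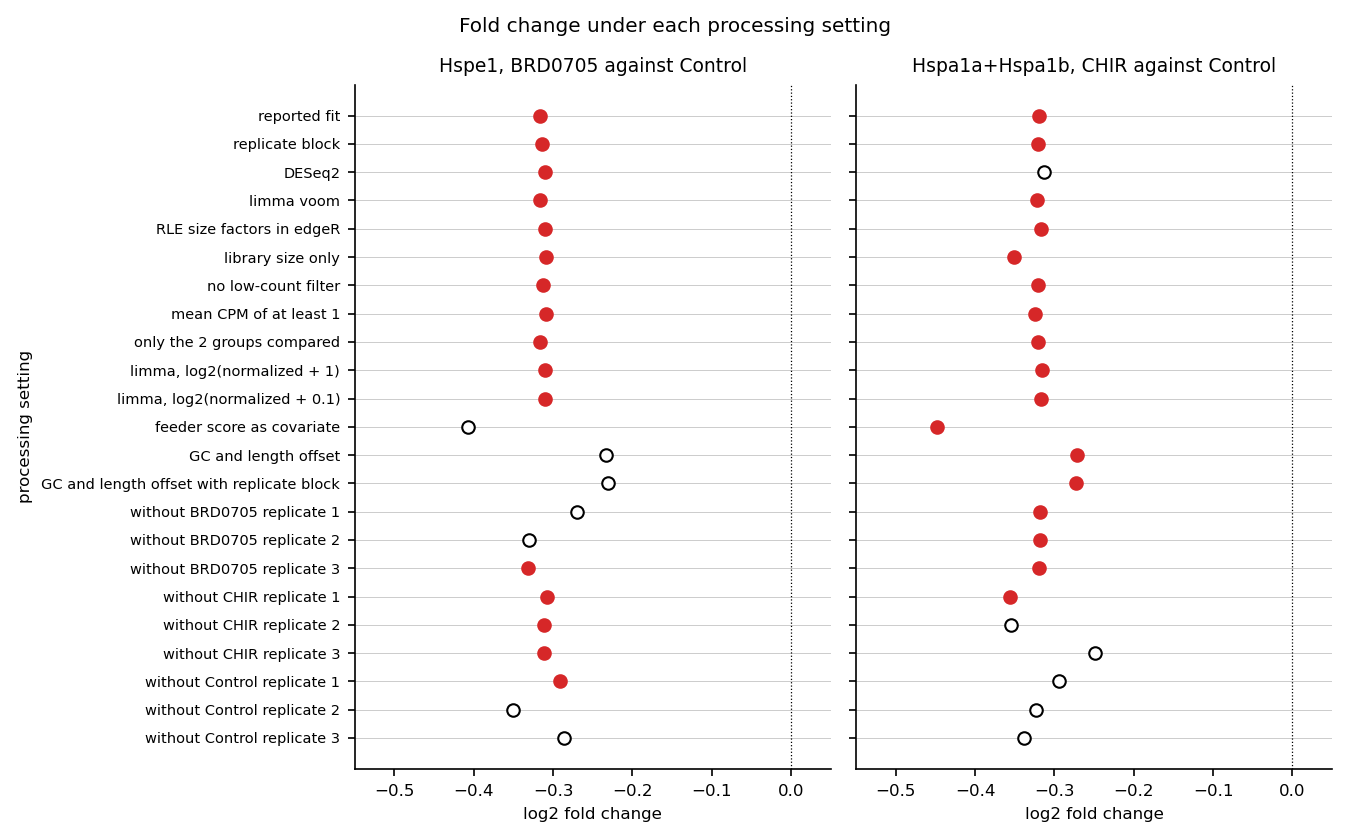
Log2 fold change of Hspe1 (BRD0705 against control, left) and of the summed Hspa1a and Hspa1b (CHIR against control, right) under each processing setting, one per line; filled red points passed an adjusted p of 0.05. All points lie below 0, from -0.41 to -0.23 for Hspe1 and from -0.45 to -0.25 for the pair, and 7 open points on the left and 6 on the right did not pass.

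The wider chaperone and stress network was described with 93 further genes in 9 lists, of which 89 were tested. BRD0705 against control gave 2 higher and 2 lower (4.49% of the 89), CHIR against control 6 higher and 1 lower (7.87%), and BRD0705 against CHIR 1 higher and 3 lower (4.49%). The corresponding shares of all tested genes are those given above, 1.22%, 6.30% and 7.77%. Median log2 fold changes of the 89 genes were -0.06, 0.0048 and -0.07.

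Among 15 HSP70 relatives and exchange factors, Bag3, the HSP70 co-chaperone of stress-induced autophagy and a well-known HSF1 target, rose with both inhibitors. It was at 67.1, 61.1 and 58.1 CPM in the control libraries, 90.2, 81.1 and 72.6 CPM under BRD0705 and 80.8, 81.4 and 76.8 CPM under CHIR, and every inhibitor library lay above control. Its log2 fold change was 0.39 ± 0.07 with BRD0705 (SE; edgeR adjusted p = 0.0161) and 0.36 ± 0.07 with CHIR (SE; edgeR adjusted p = 0.00698). Hspa9, the HSP70 of mitochondria (mortalin), fell with BRD0705 from a mean of 638 ± 7.93 CPM to one of 554 ± 5.93 CPM (SD, n = 3 per group), a log2 fold change of -0.20 (edgeR adjusted p = 0.0462). Bag2, which encodes an exchange factor that inhibits the ubiquitin ligase CHIP, fell with CHIR from a mean of 6.19 ± 0.153 CPM to one of 4.39 ± 0.489 CPM (SD, n = 3 per group), a log2 fold change of -0.49 (edgeR adjusted p = 0.0425).

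Of 11 J-domain genes, Dnajb5 passed by edgeR, higher with BRD0705 (34.5 ± 1.78 CPM) than with CHIR (27.3 ± 1.36 CPM; SD, n = 3 per group; log2 difference 0.34, edgeR adjusted p = 0.00503). DESeq2 also passed Dnajb5 in BRD0705 against control (adjusted p = 0.0417), and limma voom passed Dnaja3, a J-domain protein of mitochondria, in CHIR against control (log2 fold change -0.17, adjusted p = 0.0483). Dnaja3 was equally low under BRD0705, where it did not pass. Its levels were 92.9 ± 1.91 CPM in control, 82.4 ± 1.24 CPM under BRD0705 and 82.3 ± 1.89 CPM under CHIR (SD, n = 3 per group). Of 14 HSP90 partners, Fkbp5, an immunophilin of steroid receptor complexes, passed by edgeR. It rose with CHIR from a mean of 122 ± 3.04 CPM to one of 142 ± 8.08 CPM (SD, n = 3 per group), a log2 fold change of 0.22 (edgeR adjusted p = 0.0245) and was lower with BRD0705 than with CHIR by a log2 difference of -0.29 (edgeR adjusted p = 0.00359). In BRD0705 against control, DESeq2 passed 2 of the 14, where it passed 5.48% of all genes with an adjusted p. These were Ahsa2 (log2 fold change -0.33, DESeq2 adjusted p = 0.0412) and Ptges3 (-0.20, DESeq2 adjusted p = 0.0338). No gene passed among 5 tested HSF relatives and regulators or 6 tested small heat shock proteins by edgeR in any comparison. Counts at an unadjusted p under 0.05 in the 3 comparisons were 1, 1 and 0 for the former and 0, 0 and 0 for the latter. The shares of all tested genes were 15.9%, 20.5% and 22.5%. DESeq2 passed 0, 1 and 0 of the former and none of the latter, beside 5.48%, 6.46% and 8.02% of all genes with an adjusted p. Its call was Hsbp1 in CHIR against control (log2 fold change 0.20, DESeq2 adjusted p = 0.0382).

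The 9 chaperonin genes, Hspd1 and the 8 subunits of the cytosolic TRiC ring, included none that passed by edgeR. With BRD0705 all 9 had log2 fold changes below 0, from -0.17 to -0.08 with a median of -0.14, and 6 had an unadjusted p under 0.05, as did 15.9% of all tested genes. DESeq2 passed 3 of them (Cct3, Cct4 and Cct8), where it passed 5.48% of all genes with an adjusted p, and limma voom passed 0. With CHIR the median was -0.05, and 0 of 9 had an unadjusted p under 0.05 by edgeR or passed with DESeq2. In BRD0705 against CHIR all 9 were below 0, from -0.15 to -0.04 with a median of -0.10. There 4 had an unadjusted p under 0.05 by edgeR, as did 22.5% of all tested genes, and DESeq2 passed 0. Falls with BRD0705 against control were not confined to chaperonins. Above 0 were 3 of 14 HSP90 partners, 4 of 17 endoplasmic reticulum stress genes, 5 of 11 J-domain genes, 7 of 15 HSP70 relatives and 6 of 10 other stress-inducible genes. Of these lists 4, 1, 5, 3 and 1 genes had an unadjusted p under 0.05 by edgeR, beside 15.9% of all tested genes.

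Of 17 genes of endoplasmic reticulum stress, Ddit3, which encodes the transcription factor CHOP, passed by edgeR. It was at 6.75, 7.12 and 6.85 CPM in the control libraries, 6.21, 7.17 and 8.07 CPM under BRD0705 and 10.7 to 11.5 CPM under CHIR, which lay above all others. It rose with CHIR by 0.68 ± 0.11 (SE; edgeR adjusted p = 0.00140) and was lower with BRD0705 than with CHIR (-0.63, edgeR adjusted p = 0.00234). The chaperone genes of that list, such as Hspa5 (BiP), did not pass by edgeR in any comparison, while DESeq2 passed Canx (calnexin) between the inhibitors (log2 difference -0.18, adjusted p = 0.0186). Between the inhibitors DESeq2 also passed Atf4 (-0.20, adjusted p = 0.0305). With Ddit3 it passed 3 of the 17 there, where it passed 8.02% of all genes with an adjusted p. By edgeR 5 of the 17 had an unadjusted p under 0.05, as did 22.5% of all tested genes. Ddit3 overlaps Mars1, Mbd6 and predicted genes, so part of its count may come from them.

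Among 10 other stress-inducible genes, Hmox1, the heme oxygenase of the oxidative stress response, rose with both inhibitors. It was at 119, 110 and 114 CPM in the control libraries, 136, 143 and 141 CPM under BRD0705 and 147, 158 and 145 CPM under CHIR, with no overlap between control and either inhibitor. The log2 fold changes were 0.29 ± 0.05 (SE; edgeR adjusted p = 0.0136) and 0.39 ± 0.05 (SE; edgeR adjusted p = 0.000346). Gadd45b, a growth arrest gene, rose with CHIR from a mean of 27.0 ± 0.655 CPM to one of 31.7 ± 1.18 CPM (SD, n = 3 per group), a log2 fold change of 0.24 (edgeR adjusted p = 0.0374). The cold-inducible Cirbp fell with BRD0705, at 23.2, 24.2 and 25.3 CPM against 30.2, 31.3 and 27.9 CPM in control (log2 fold change -0.30, edgeR adjusted p = 0.0426), and rose with CHIR to 37.5, 35.4 and 38.7 CPM (0.32, edgeR adjusted p = 0.00747). Rbm3, its cold-inducible relative, was at 245 ± 12.5 CPM in the control group, 225 ± 7.60 CPM under BRD0705 and 258 ± 18.5 CPM under CHIR (SD, n = 3 per group). Its difference between the inhibitors, -0.19 on the log2 scale, did not pass by edgeR (adjusted p = 0.0503) and passed with DESeq2 (adjusted p = 0.0177) and with limma on the deposited signal (adjusted p = 0.0406 and 0.0423).

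Ddit3, Hmox1, Bag3 and Cirbp passed against control with CHIR in all 9 fits that left out 1 library, as did Cirbp, Ddit3, Fkbp5 and Dnajb5 between the inhibitors. With BRD0705, the calls of Bag3 and Hmox1 were lost without BRD0705 replicate 1 or 2 or control replicate 2 or 3 (edgeR adjusted p = 0.0570 to 0.133 and 0.0514 to 0.0731). Those of Hspa9 and Cirbp were lost without any of these, control replicate 1 or CHIR replicate 2 (edgeR adjusted p = 0.0613 to 0.195 and 0.0646 to 0.222). With CHIR, Bag2 was lost without CHIR replicate 2 or 3, BRD0705 replicate 1 or any control library (edgeR adjusted p = 0.0560 to 0.134), Fkbp5 without CHIR replicate 1 or 2 or control replicate 1 or 3 (edgeR adjusted p = 0.0554 to 0.0989), and Gadd45b without CHIR replicate 1 or 2 or control replicate 2 or 3 (edgeR adjusted p = 0.0881 to 0.123). With the fibroblast score as a covariate, a fit in which 0 of all genes passed for BRD0705 against control, Bag3, Hmox1, Hspa9 and Cirbp kept log2 fold changes of 0.29, 0.22, -0.25 and -0.23 with BRD0705 and did not pass (edgeR adjusted p = 0.367 to 0.536). With CHIR in that fit, Bag3, Bag2, Fkbp5 and Gadd45b had log2 fold changes of 0.28, -0.60, 0.19 and 0.18 and did not pass (edgeR adjusted p = 0.132, 0.109, 0.206 and 0.324). Other settings that ended a call were the GC and length trend for Hspa9 and Bag2 (edgeR adjusted p = 0.110 and 0.0550), DESeq2 for Bag2 and Gadd45b (adjusted p = 0.108 and 0.0565), library size only for Fkbp5 and Gadd45b (edgeR adjusted p = 0.0628 and 0.0722), limma for Hspa9 on the deposited signal and for Cirbp with voom under BRD0705 (adjusted p = 0.0509 to 0.0513 and 0.0537), and a fit of the 2 groups alone for Hspa9 and Cirbp under BRD0705 (edgeR adjusted p = 0.0628 and 0.0556).

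**Figure D4:**
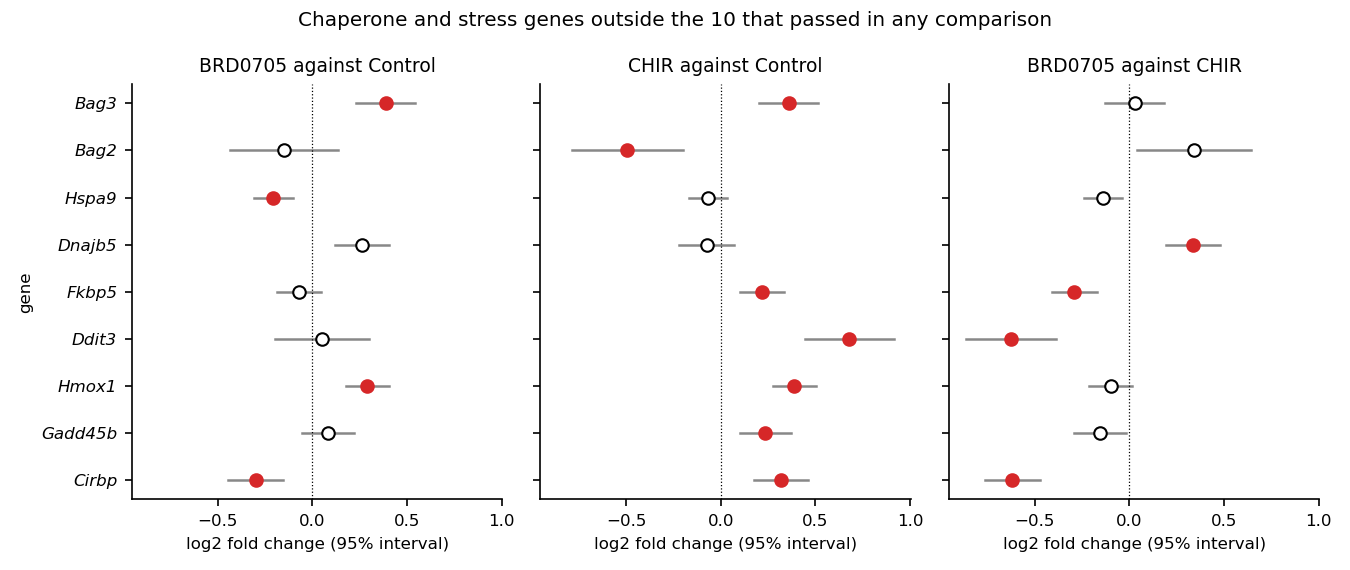
Log2 fold change (points) with 95% interval (grey lines) in the 3 comparisons for the 9 genes of the wider lists that passed in at least 1 of them; filled red points passed an adjusted p of 0.05. Bag3 and Hmox1 are filled to the right of 0 in both comparisons with control, and Cirbp is filled on opposite sides of 0.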

How the data were processed

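The samples were 9 RNA sequencing libraries, 3 per group, assigned to groups and replicate numbers by their library descriptions. The authors deposited whole-number read counts per gene symbol. They also deposited normalized counts, a signal that equals the raw counts divided by 1 factor per library to within 5.10e-10. Per the submitters' processing notes, RSEM, DESeq2 and the mm10 build were used; versions, annotation, strand setting and any rounding are not given in the sources used here. Per the labels' protocols, ribosomal RNA was depleted, while the molecule label names polyA RNA. RSEM divides reads between similar transcripts, which bears on Hspa1a and Hspa1b.

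The test of the counts was edgeR 4.0.16 (R 4.3.3): normalization by TMM, filterByExpr (minimum count 10) and the quasi-likelihood F test over 3 group means, with 6 residual degrees of freedom. P-values were 2-sided and adjusted by Benjamini-Hochberg over all 15366 genes. CPM values take the TMM factors into account, and a prior count of 2 was added before log2. Intervals are 95% intervals from the fit. Replicates of a group differed by more than sampling noise (chi-square divided by its degrees of freedom, 3.39 to 8.01). The code was tested on simulated data. Exon lengths, overlaps and shared stretches of 75 bases came from GENCODE vM39, and promoter windows from RefSeq.

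All 10 genes are named, and from the other lists those that passed, at most 4 per list and comparison; 5 genes were named for likeness to Hspa1a and Hspa1b. Dnaja3, Ahsa2, Ptges3, Hsbp1, Canx, Atf4, Cct3, Cct4, Cct8 and Rbm3 were named after their values were seen. Genes and lists were chosen with earlier results of these data known. The alternatives were a replicate block, DESeq2 1.42.0, limma 3.58.1 (voom, or log2 of the deposited signal plus 1 or 0.1), RLE factors, library size only, no filter, a floor of 1 on mean CPM, a fit of 2 groups, the Hspa1 sum, a fibroblast marker covariate and leaving out each library. Removing GC and length trends (splines with 5 degrees of freedom each), alone or with the block, was added after seeing the data; 98.0% of tested genes had a GC content.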

Additional observations from a re-analysis of the deposited data

How the results depend on the processing

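Of the 10 genes, the number that passed in BRD0705 against control (1) was 3 with DESeq2, 2 without the low-count filter, and 0 with the fibroblast covariate, the GC and length offset, or that offset with the replicate block. In CHIR against control (0) it was 1 with DESeq2, without the filter or with the Hspa1 pair summed, and 2 with the GC and length offset, alone or with the block. In BRD0705 against CHIR (0) it was 2 with DESeq2 or without the filter, and 1 with library size only, a mean CPM of at least 1, the GC and length offset, alone or with the block, or the pair summed. Leaving out 1 library gave 0 to 2, 0 to 1 and 0 to 1. Over all tested genes, the alternatives gave 0 to 609, 280 to 1540 and 952 to 1529 in the 3 comparisons. Leaving out 1 library gave 21 to 305, 514 to 1070 and 616 to 1313 of all tested genes. DESeq2 passed 5.48%, 6.46% and 8.02% of the genes to which it gave an adjusted p. With the pair summed the shares were 1.43%, 6.35% and 7.77% of all rows. Counts of the 10 are to be read beside these. Where only a range over settings is given for all genes, a count of the 10 cannot be set against its own background. The fit without the filter also tests more genes than the others. A replicate block left the counts at 1, 0 and 0, and among the named genes ended the call of Cirbp under BRD0705 (edgeR adjusted p = 0.0504). Deviations from the group means had a mean correlation of -0.00119 between libraries that share a replicate number (range -0.0897 to 0.0802 over 9 pairs). Pairs with different numbers had a mean of 0.000622 (range -0.116 to 0.129 over 18 pairs). Because deviations were centred within each group of 3, these 2 means are tied to each other. The mean for equal numbers was no higher than that for different numbers. Whether libraries with equal numbers were handled together was not tested.

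Signs of some log2 differences turned. For BRD0705 against control, Hspa1a turned on the deposited signal (0.0024 and 0.0025 with a pseudocount of 1 and 0.1). In the same comparison Hspa1b and the sum Hspa1a+Hspa1b turned with the fibroblast covariate (-0.14 and -0.14), the GC and length offset (-0.031 and -0.041) and that offset plus the block (-0.032 and -0.040). For CHIR against control, the offset turned Hsph1 (0.019), Hsp90aa1 (0.030) and Hsp90ab1 (0.015), and with the block added they were at 0.020, 0.031 and 0.013. There the fibroblast covariate turned Hsp90aa1 (0.0096) and Dnajb1 (-0.020), and library size only turned Dnajb1 (-0.013). Between the inhibitors, library size only turned Hsph1 (0.0015) and Hsp90ab1 (0.0034), and the offset turned Dnajb1 (-0.022) and Hspb1 (-0.030; with the block -0.022 and -0.031). Leaving out 1 library turned Hspa1a (-0.083 to 0.039), Hspa1b (-0.014 to 0.13), Hsp90ab1 (-0.091 to 0.0026) and Hspa1a+Hspa1b (-0.0070 to 0.087) for BRD0705 against control, Hsp90aa1 (-0.081 to 0.011), Hsp90ab1 (-0.099 to 0.037) and Dnajb1 (-0.017 to 0.076) for CHIR against control, and Hsf1 (-0.12 to 0.016) and Hsp90ab1 (-0.083 to 0.037) between the inhibitors. The cause was not tested.

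Over all tested genes, BRD0705 against control (188) gave 471 with DESeq2, 609 without the filter, 0 with the fibroblast covariate, 114 with the GC and length offset, 120 with the block added, and 21 to 305 without 1 library. CHIR against control (968) gave 280 with the covariate, 1540 with the offset, 1485 with the block added, and 514 to 1070 without 1 library; BRD0705 against CHIR (1194) gave 952 to 1529 over the alternatives and 616 to 1313 without 1 library. Library size only moved the share of calls that were higher from 40.0 to 26.4% for CHIR against control and from 61.8 to 79.2% between the inhibitors. Over the 89 genes of the wider lists, the counts of 4, 7 and 4 ranged from 0 to 10, 3 to 8 and 4 to 13. DESeq2 gave no adjusted p for Hspa1a in BRD0705 against control.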
